A study of Homo sapiens with 12 samples.

Results

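Peroxiredoxins, superoxide dismutases and catalase are the enzymes that remove superoxide and hydrogen peroxide directly. The 9 genes described here were chosen by symbol: PRDX1, PRDX2, PRDX3, PRDX4, PRDX5, PRDX6, SOD1, SOD2 and CAT. All 9 were found among the 28278 genes of the count table, and all 9 passed the filter on low counts, which left 15916 genes for testing. Human embryonic stem cells of the line WA26 were profiled by RNA-seq, either wild type (WT) or with UBQLN1 deleted (KO), and grown in E8 medium. Of 12 samples in the labels, 8 libraries were analysed, 2 in each of 4 groups: WT at normal O2, KO at normal O2, KO at 5% O2 and KO treated with N-acetylcysteine (NAC), a cysteine donor used as an antioxidant. The 4 WT libraries at 5% O2 or with NAC were not analysed here, so neither treatment could be compared between genotypes. The KO lines were made with CRISPR/Cas9 and 2 clones were picked for each genotype, but which clone gave which library is not stated, and the p-values measure the spread between 2 libraries a group, which may be technical.

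The enzymes act in series. Superoxide dismutases turn superoxide into hydrogen peroxide, SOD1 with copper and zinc in the cytosol and SOD2 with manganese in the mitochondrial matrix. Catalase, encoded by CAT, splits hydrogen peroxide in peroxisomes. Peroxiredoxins reduce it with a reactive cysteine: PRDX1 and PRDX2 in the cytosol, PRDX3 in mitochondria, PRDX4 in the endoplasmic reticulum, and PRDX5 in mitochondria, peroxisomes and cytosol. Thioredoxin is the main electron donor of PRDX1, PRDX2, PRDX3 and PRDX5. PRDX6 takes electrons from glutathione and also has phospholipase activity.

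The deleted gene was low in each library labelled KO. UBQLN1, which encodes a ubiquitin-binding shuttle protein, gave 221 and 197 counts per 1000000 library counts (CPM) in the WT libraries and 42.3 and 43.5 CPM in the KO libraries at normal O2, a log2 difference of -2.29 ± 0.12 (SE; adjusted p = 2.52e-06, edgeR's quasi-likelihood test). In the treated KO libraries it gave 47.7 to 62.4 CPM. Libraries held 31236968 to 41639350 counts in genes. The summed CPM of 10 pluripotency genes was 6350 to 7530, all 10 being detected. Single genes of this list differed more than the sum. DNMT3B had 2550 and 2460 CPM in KO cells at normal O2 and 1140 and 1420 CPM with NAC. DPPA4 went the other way, from 683 and 678 CPM to 1140 and 1070 CPM. Markers of neuroectoderm, mesendoderm and trophoblast summed to 3.76 to 13.1 CPM per list. One library stood apart: 8 fibroblast genes summed to 936 CPM in NAC replicate 1 and to 512 to 627 CPM in the other 7 libraries. In that library DCN, a proteoglycan of connective tissue, reached 47.2 CPM and COL3A1, a fibrillar collagen, reached 29.1 CPM. LUM, another proteoglycan, had 3.86 CPM there. DCN and LUM were at 0 in the other 7 libraries, and COL3A1 was at 0 in 6 of them and at 0.207 CPM in WT replicate 2. For the enzymes, fold changes that rest on this library are also given without it, or as a range over leaving out any 1 library. Where a trend described below was removed, they are given only with it. Group means, orders and shares include it. Fold changes of single partner genes, also described below, are given only with this library included.

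The 9 genes lie on 7 chromosomes. On hg38, with GENCODE v44 annotation, PRDX1 spans chr1:45510914-45542732 on the minus strand with 6 exons in its canonical transcript, and PRDX6 spans chr1:173477330-173488815 on the plus strand with 5 exons. PRDX5 lies at chr11:64318121-64321811 and CAT at chr11:34438934-34472060, both on the plus strand, with 6 and 13 exons. PRDX2 lies at chr19:12796820-12801800, PRDX3 at chr10:119167720-119178812 and SOD2 at chr6:159669069-159762529, all on the minus strand. PRDX4 lies at chrX:23664262-23686397 and SOD1 at chr21:31659666-31668931, both on the plus strand. Parts of some transcripts are shared with other loci, which can blur a count. Exonic bases of PRDX1 overlap MMACHC on the opposite strand over 364 bases, 38.5% of the canonical PRDX1 transcript. A long non-coding RNA gene overlaps 247 exonic bases of PRDX2 in the same way. The counting used default settings, which ignore strand, so strand did not separate reads of these overlapping genes. How such reads entered the counts was not examined, and levels per kb below use the full canonical length. Of all 31-base words of the canonical transcript, 16.3% in PRDX3, 14.6% in PRDX2, 11.8% in PRDX1 and 7.8% in PRDX6 also occurred elsewhere on the primary chromosomes, against 2.7% in PRDX5, 2.5% in SOD1 and 0 in PRDX4 and CAT. SOD2 had 42.2%, in a canonical transcript of 14167 bases.

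Promoter sequences are shown because PRDX1, PRDX2, PRDX3 and PRDX4 were called higher under both treatments. RefSeq's promoter table for GRCh38.p14 held 6 of the 9 genes, namely PRDX2, PRDX3, PRDX4, PRDX5, SOD2 and CAT. The 250 bases before the start were searched on both strands for ACGTG, the core letters of a hypoxia response element, and for TGACNNNGC, the core of an antioxidant response element. ACGTG was found in 18.5% of 35116 promoter windows of this length and TGACNNNGC in 10.9%. The 6 genes had 10 windows, of which 3 held ACGTG, those of PRDX2, PRDX3 and PRDX4, and none held TGACNNNGC. The windows of those 3 genes are printed 5′ to 3′ on the strand of the gene, followed by that of CAT, in which neither motif was found; capitals mark ACGTG, or CACGT where it lies on the opposite strand, and CACGTG reads the same on both strands. They lie at chr19:12801801-12802050 (minus), chr10:119178813-119179062 (minus), chrX:23667243-23667492 (plus) and chr11:34438684-34438933 (plus).
PRDX2: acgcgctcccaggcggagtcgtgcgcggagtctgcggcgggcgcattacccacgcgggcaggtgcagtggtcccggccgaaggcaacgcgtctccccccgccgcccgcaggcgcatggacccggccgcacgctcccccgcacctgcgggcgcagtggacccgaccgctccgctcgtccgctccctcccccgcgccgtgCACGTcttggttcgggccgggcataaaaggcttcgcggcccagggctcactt
PRDX3: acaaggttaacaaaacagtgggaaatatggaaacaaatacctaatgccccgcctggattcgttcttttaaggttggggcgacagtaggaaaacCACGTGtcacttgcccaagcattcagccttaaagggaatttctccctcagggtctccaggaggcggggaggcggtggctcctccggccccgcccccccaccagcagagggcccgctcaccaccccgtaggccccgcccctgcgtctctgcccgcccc
PRDX4: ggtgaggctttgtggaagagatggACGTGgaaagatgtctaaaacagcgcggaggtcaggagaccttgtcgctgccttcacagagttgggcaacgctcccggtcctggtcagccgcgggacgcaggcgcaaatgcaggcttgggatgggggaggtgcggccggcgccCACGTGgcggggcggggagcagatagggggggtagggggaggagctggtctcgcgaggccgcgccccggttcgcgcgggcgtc
CAT: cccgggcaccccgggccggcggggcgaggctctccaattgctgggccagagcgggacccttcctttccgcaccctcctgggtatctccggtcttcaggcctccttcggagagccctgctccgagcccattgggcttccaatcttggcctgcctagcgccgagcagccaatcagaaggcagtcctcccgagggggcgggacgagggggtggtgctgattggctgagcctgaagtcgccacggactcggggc
PRDX3 held 1 place with these letters, the palindrome CACGTG, and PRDX4 held 2, of which 1 was CACGTG. PRDX2 held 1, near the start. A match of so few letters is a description of the sequence and was not tied to any factor in these data.

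Levels per transcript length ordered the genes in much the same way in each group. In KO cells at normal O2, PRDX1 had 510 ± 9.46 CPM per kb (SD, n = 2), PRDX2 had 404 ± 0.0182 and PRDX6 had 298 ± 0.488. PRDX5 followed at 207 ± 3.26, then PRDX3 at 152 ± 2.82, SOD1 at 137 ± 5.68 and PRDX4 at 130 ± 5.78, the last 2 of which overlapped. CAT was far lower at 8.03 ± 0.0839 CPM per kb. In WT cells the libraries of PRDX4, PRDX3 and SOD1 overlapped with their neighbours in the order, while PRDX1, PRDX2, PRDX6 and PRDX5 kept the same places without overlap. SOD2 was left out of the order, because its 11 coding transcripts in GENCODE v44 run from 507 to 14167 bases and its level per kb depends on which is used.

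With NAC the order changed in its middle. PRDX3 moved to the third place at 350 ± 8.58 CPM per kb (SD, n = 2), above PRDX6 at 328 ± 3.24, with no overlap between their libraries. PRDX4, at 287 ± 19.7, overlapped PRDX5 at 263 ± 49. Of the summed per-kb level of the 6 peroxiredoxins, the mitochondrial PRDX3 took 8.93% in KO cells at normal O2 (8.9 and 8.97% in the libraries) and 13.4% with NAC (12.8 and 13.9%). PRDX6 took 17.5% and 12.5% in the same groups. These values do not take account of a trend of fold changes over transcript length and GC content, described below. With that trend removed, the log2 fold change with NAC was 0.45 for PRDX3 and -0.365 for PRDX6. The order and the shares were not computed with it removed.

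**Figure D1:**
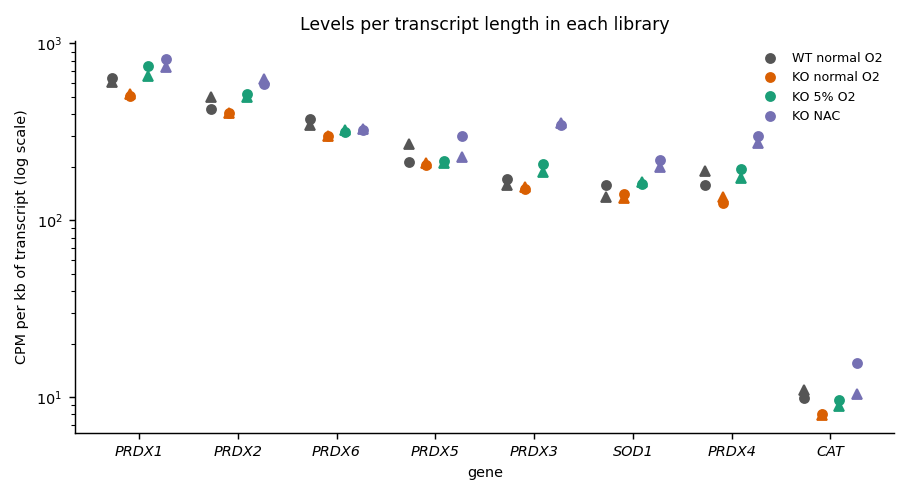
The y axis gives CPM per kb of canonical transcript on a log scale for 8 genes on the x axis, coloured by group, with circles for replicate 1 and triangles for replicate 2. PRDX1 is highest in all 4 groups and CAT lowest, and PRDX3 rises above PRDX6 in the NAC libraries. The trend of fold changes over transcript length and GC content is not removed from these values.

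Across groups, all 9 genes had their lowest mean level in KO cells at normal O2, against 28.9% of tested genes. For PRDX1, PRDX2, PRDX3, PRDX4, SOD1 and SOD2 the order of the means was KO, WT, KO at 5% O2 and KO with NAC. PRDX5 and CAT followed the order KO, KO at 5% O2, WT and KO with NAC. PRDX6 alone had its highest mean in WT. For PRDX5 and SOD2 the highest place of NAC rested on NAC replicate 1, the library with fibroblast markers. In NAC replicate 2, PRDX5 had 197 CPM, against a WT mean of 209 CPM. SOD2 had 105 CPM there, against a mean of 109 CPM at 5% O2. Neighbours in these orders overlapped in several cases: the SOD2 libraries overlapped at each step, PRDX1 overlapped between 5% O2 and NAC, PRDX4 between WT and 5% O2, SOD1 between KO and WT, CAT between WT and NAC, and PRDX5 between 5% O2 and WT and between WT and NAC. For PRDX2, PRDX3 and PRDX6 no neighbouring groups overlapped, which 11.5% of tested genes showed. These orders are of CPM without removal of the trend over transcript length and GC content. With it removed, not all 9 genes were lowest in KO cells at normal O2. In log2 units, KO was then above WT for PRDX3 (0.048) and SOD1 (0.081). PRDX6 was then lower with NAC (-0.365) and at 5% O2 (-0.09) than in KO cells at normal O2. The 3 comparisons with KO cells at normal O2 share those 2 libraries.

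**Figure D2:**
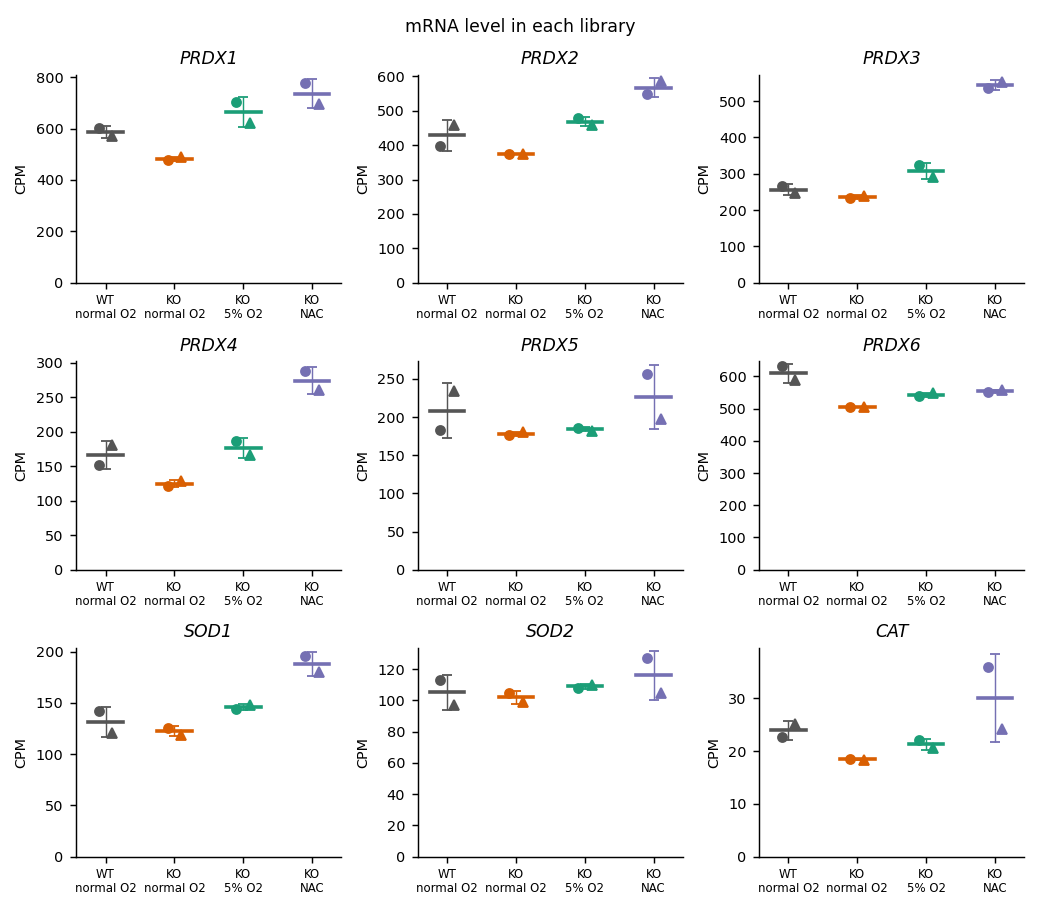
Each panel shows 1 gene, with normalised CPM on the y axis from 0 and the 4 groups on the x axis. Circles are replicate 1 and triangles replicate 2, horizontal lines are group means and error bars are SD (n = 2). KO cells at normal O2 have the lowest mean in all 9 panels, with the length and GC trend not removed.

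The first comparison asked which of these genes differed after loss of UBQLN1 at normal O2. None of the 9 was called at an adjusted p under 0.05, against 1.96% of all tested genes (0.622% lower, 1.34% higher). All 9 had a log2 difference below 0, against 50.4% of tested genes, with a median of -0.23 over the 9 and -0.0024 over all genes. At an unadjusted p under 0.05, 5 of 9 were lower (PRDX1, PRDX2, PRDX4, PRDX6 and CAT; 8.12% of tested genes), and with the trend over transcript length and GC content removed only PRDX4 was (8.2% of genes). DESeq2 called 3 of 9 lower, PRDX1 (adjusted p = 0.0407), PRDX4 (adjusted p = 0.00505) and PRDX6 (adjusted p = 0.0196), against 2.3% of the genes it tested.

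PRDX4, the peroxiredoxin of the endoplasmic reticulum, gave 152 and 181 CPM in WT and 121 and 129 CPM in KO cells. The groups did not overlap, and the log2 difference was -0.42 ± 0.11 (SE; 95% interval -0.65 to -0.19, adjusted p = 0.0708). The gap between the groups was smaller than the difference between the WT libraries. The log2 difference was -0.535 without WT replicate 1 and -0.286 without WT replicate 2. PRDX6 gave 631 and 588 CPM in WT and 504 and 505 CPM in KO cells. This was a log2 difference of -0.27 ± 0.075, again without overlap (adjusted p = 0.0922). PRDX1 gave 604 and 571 CPM in WT and 476 and 488 CPM in KO cells. Its KO libraries lay below both WT libraries, with a log2 difference of -0.29 ± 0.089 (adjusted p = 0.124).

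The remaining genes had higher adjusted p-values. CAT gave 22.7 and 25.2 CPM in WT and 18.5 and 18.3 CPM in KO cells (log2 difference -0.38 ± 0.17, adjusted p = 0.264). PRDX2 gave 397 and 459 CPM in WT and 373 in both KO libraries, with a log2 difference of -0.20 (adjusted p = 0.274). PRDX5 had 183 and 234 CPM in WT and 176 and 180 CPM in KO cells. The KO libraries of these 3 genes lay below both WT libraries, but for PRDX2 and PRDX5 the gap was smaller than the difference between the WT libraries. PRDX3 had 267 and 246 CPM in WT and 233 and 239 CPM in KO cells (log2 difference -0.12, 95% interval -0.31 to 0.064), again with a gap smaller than the difference between the WT libraries. The superoxide dismutases overlapped between genotypes: SOD1 at 142 and 121 against 126 and 119 CPM, and SOD2 at 113 and 97.2 against 105 and 99.1 CPM. In all, 7 of 9 genes had KO libraries below both WT libraries, against 27.0% of tested genes. With that trend removed, PRDX1 was at -0.13, PRDX6 at -0.153 and PRDX4 at -0.28; 7 of 9 had a value below 0, against 50.6% of genes, and PRDX3 (0.048) and SOD1 (0.081) lay above it.

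**Figure D3:**
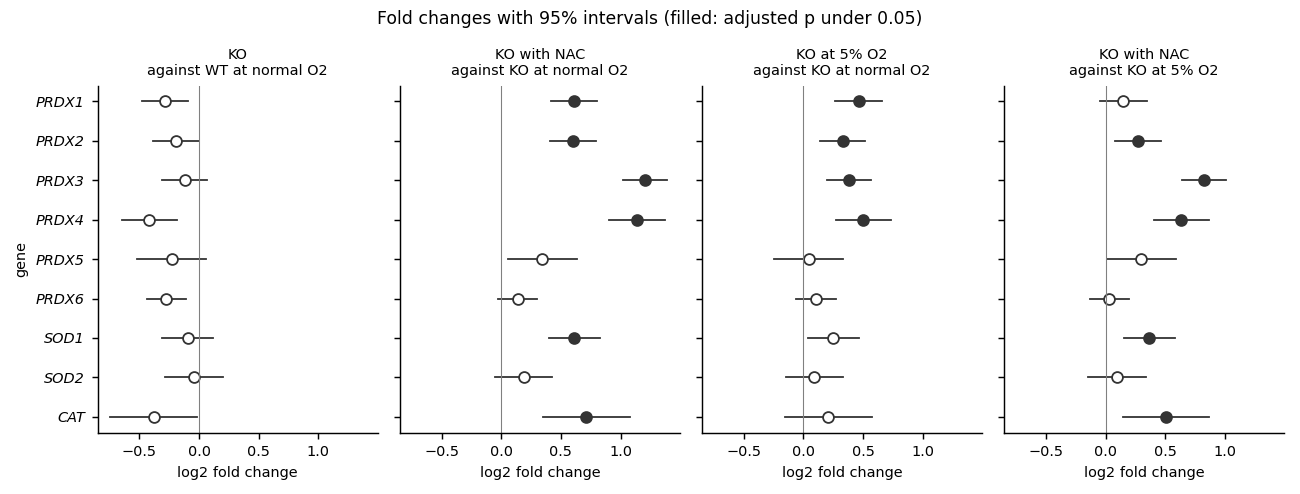
Points give the log2 fold change of each gene (y axis) and lines its 95% interval in 4 comparisons, one a panel, with filled points for an adjusted p under 0.05 in edgeR's quasi-likelihood test. No point is filled for KO against WT, and PRDX3 and PRDX4 lie farthest right in both panels on NAC.

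The second comparison asked what NAC changed in KO cells. The labels name no vehicle for the untreated KO libraries, and the study describes DMSO as the control for NAC. Its scheme also places harvest for RNA-seq after serial passages with NAC, and the labels give no passage for any library. NAC, its vehicle and time in culture therefore cannot be told apart here. Of the 9 genes, 6 rose and none fell at an adjusted p under 0.05, against 23.8% of tested genes higher, 20.8% lower and 44.6% in either direction. The mitochondrial PRDX3 and the endoplasmic reticulum PRDX4 rose 2.31- and 2.2-fold, PRDX1, PRDX2 and SOD1 rose 1.52- to 1.53-fold, and CAT rose 1.64-fold. PRDX5, PRDX6 and SOD2 did not pass the test. The median log2 fold change of the 9 genes was 0.61, and that of all genes 0.023.

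PRDX3 gave 233 and 239 CPM in untreated KO cells and 535 and 553 CPM with NAC. Both treated libraries lay far above the other 6, of which the highest had 323 CPM, and the fold change was 2.31 (log2 fold change 1.205 ± 0.086, 95% interval 1.02 to 1.39, adjusted p = 1.28e-05). PRDX4 rose from 121 and 129 CPM to 288 and 261 CPM. This was 2.2-fold, with a log2 fold change of 1.14 ± 0.11 (adjusted p = 1.94e-05), and its treated libraries also lay above all others. Only these 2 genes passed the study's own rule of an absolute log2 fold change over 1 with an unadjusted p under 0.05, which 3.63% of tested genes passed upwards.

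The cytosolic peroxiredoxins rose less. PRDX1 went from 476 and 488 CPM to 777 and 695 CPM (log2 fold change 0.61 ± 0.089, adjusted p = 0.000203). PRDX2 went from 373 CPM in both libraries to 548 and 586 CPM (0.60 ± 0.088 on the log2 scale, adjusted p = 0.000201). Treated and untreated libraries did not overlap for either gene. SOD1, the cytosolic dismutase, rose from 126 and 119 CPM to 196 and 180 CPM, with a log2 fold change of 0.61 ± 0.098 (adjusted p = 0.000352).

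CAT, PRDX5 and SOD2 were each higher in NAC replicate 1, the library with the fibroblast markers, than in NAC replicate 2. CAT had 36.0 and 24.1 CPM with NAC against 18.5 and 18.3 CPM without (log2 fold change 0.71 ± 0.17, adjusted p = 0.00428). Without NAC replicate 1, its log2 fold change was 0.39 with an adjusted p of 0.031. PRDX5 had 256 and 197 CPM against 176 and 180 CPM (log2 fold change 0.35 ± 0.13, adjusted p = 0.0516), and 0.14 on the log2 scale without that library. SOD2 had 127 and 105 CPM against 105 and 99.1 CPM, 0.19 on the log2 scale (adjusted p = 0.194) and 0.036 without that library. The same 6 genes were called without NAC replicate 1, PRDX3 at a log2 fold change of 1.23, PRDX4 at 1.06, PRDX2 at 0.65, SOD1 at 0.55 and PRDX1 at 0.525; the part of fibroblast RNA in the CAT, PRDX5 and SOD2 values was not tested further.

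PRDX6, which relies on glutathione, had 504 and 505 CPM without NAC and 551 and 558 CPM with it. The libraries did not overlap, but the log2 fold change was 0.14 ± 0.075 (95% interval -0.028 to 0.30, adjusted p = 0.165). Without NAC replicate 1 it was 0.144. In all, 8 of 9 genes had both NAC libraries above both untreated libraries, against 36.2% of tested genes.

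Fold changes after NAC followed transcript features across all genes, with a Spearman correlation of -0.499 with GC content and -0.255 with length over 15022 genes, which are not independent replicates. The other comparisons had such a trend too. The correlations with GC content and length were -0.335 and -0.251 for 5% O2 against normal O2. They were 0.145 and 0.231 for KO against WT, and -0.41 and -0.175 for NAC against 5% O2. With the trend removed, 5 of 9 genes rose with NAC and 1 fell, against 15.4% and 11% of genes. PRDX4 kept most of its rise (log2 fold change 0.80, adjusted p = 0.000185), as did PRDX2 (0.55, adjusted p = 0.0006). PRDX3, whose transcript has 40.18% GC, was reduced from 1.205 to 0.45 (adjusted p = 0.00167). PRDX1 fell to 0.079 (adjusted p = 0.471), SOD1 to -0.031 (adjusted p = 0.853) and CAT to 0.38 (adjusted p = 0.0878), and these 3 calls were lost. PRDX5, with 60.58% GC, passed at 0.36 (adjusted p = 0.0403). PRDX6 turned to -0.365 (adjusted p = 0.00581).

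SOD2 passed as well, at a log2 fold change of 0.45 (adjusted p = 0.01), but with a length of 14167 bases. With the median length of each gene's coding transcripts in place of the canonical one, which is 917 bases for SOD2, its value was -0.081 (adjusted p = 0.597). With that length PRDX1 (0.255, adjusted p = 0.0197) and CAT (0.51, adjusted p = 0.03) were again called, and PRDX2, PRDX3, PRDX4, PRDX5 and PRDX6 kept their calls. The rises of PRDX2, PRDX3 and PRDX4 thus passed the test with and without the trend, while those of PRDX1, CAT and SOD1 depended on how it was handled. Whether the trend arose in the cells or in the libraries was not tested.

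**Figure D4:**
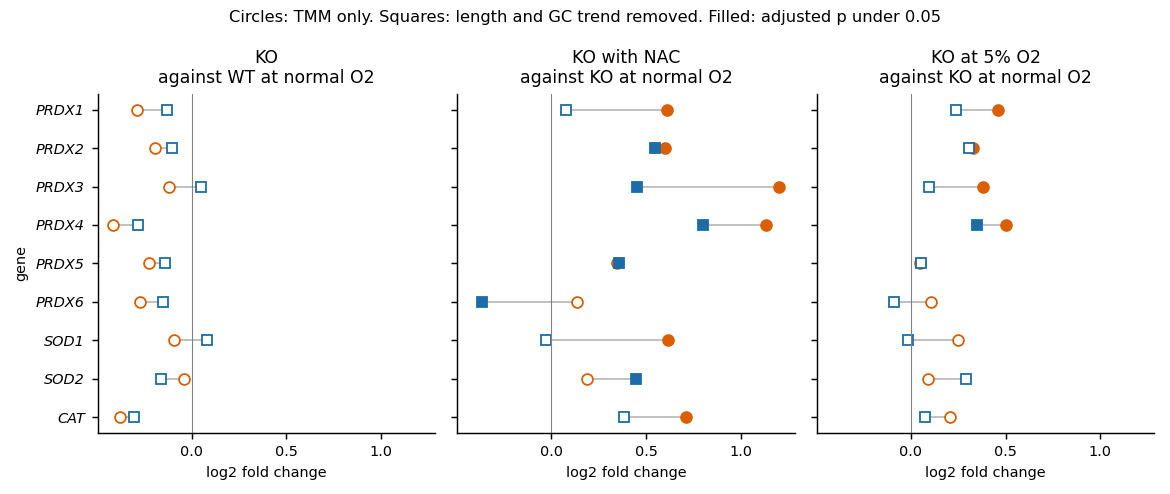
The x axis gives the log2 fold change of each gene (y axis) in 3 comparisons; orange circles are values after TMM scaling and blue squares those with the length and GC trend of all genes removed, filled for an adjusted p under 0.05. In the NAC panel PRDX2, PRDX3 and PRDX4 stay filled, PRDX1, SOD1 and CAT lose their calls and PRDX6 crosses 0; the SOD2 square rests on a transcript length of 14167 bases.

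The third comparison asked the same of 5% O2 in KO cells. The study's text describes RNA-seq after hours of culture at 5% O2, while its scheme places harvest for RNA-seq after serial passages. Which applies to these libraries is not settled, so low oxygen and time in culture cannot be told apart here. Of the 9 genes, 4 rose and none fell, against 3.68% of tested genes higher and 4.13% lower. The 4 were the peroxiredoxins PRDX1 to PRDX4. The median log2 fold change of the 9 genes was 0.25, against -0.0002 over all genes. Each of the 9 genes had both 5% O2 libraries above both libraries at normal O2, which 30.7% of tested genes showed.

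PRDX4 rose from 121 and 129 CPM to 187 and 166 CPM, a log2 fold change of 0.50 ± 0.11 (adjusted p = 0.0209). PRDX1 reached 705 and 623 CPM from 476 and 488 CPM, 0.46 ± 0.089 on the log2 scale (adjusted p = 0.0151). PRDX3 reached 323 and 292 CPM from 233 and 239 CPM (0.38 ± 0.085, adjusted p = 0.024). PRDX2 reached 478 and 459 CPM from 373 CPM (0.33 ± 0.088, adjusted p = 0.0442). For PRDX1, PRDX3 and PRDX4, replicate 1 was the higher of the 5% O2 libraries by more than the untreated libraries differed.

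The other genes did not pass. SOD1 had 144 and 148 CPM against 126 and 119 CPM (log2 fold change 0.25, 95% interval 0.035 to 0.46, adjusted p = 0.14). CAT had 22.0 and 20.5 CPM against 18.5 and 18.3 CPM (0.21, adjusted p = 0.479). SOD2 at 108 and 110 CPM, PRDX5 at 186 and 182 CPM and PRDX6 at 538 and 548 CPM had log2 fold changes of 0.092, 0.047 and 0.11.

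These calls were less stable than those for NAC. Without KO replicate 1 at normal O2, without KO replicate 2 at normal O2 or without 5% O2 replicate 1, none of the 9 was called. Without 5% O2 replicate 2, PRDX1, PRDX3 and PRDX4 were called. The log2 fold changes of the 4 genes stayed between 0.299 and 0.587 in these fits. Calls over all tested genes were also far fewer in each of these fits, so the loss of calls was not particular to the enzymes. With the length and GC trend removed, only PRDX4 passed (0.35, adjusted p = 0.048; 1.8% of genes were higher), and with median transcript lengths PRDX1 (0.33, adjusted p = 0.0352) and PRDX2 (0.37, adjusted p = 0.0282) passed instead, with PRDX4 at 0.36 (adjusted p = 0.0524).

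The fourth comparison set NAC against 5% O2 directly, which tests the difference between these groups. The time at 5% O2 behind the libraries is not settled by the sources, so treatment, vehicle and time in culture cannot be told apart in it. Levels were higher with NAC for 5 of 9 genes and lower for none, against 15.5% of tested genes higher and 13.6% lower. PRDX3 differed most: 535 and 553 CPM with NAC against 323 and 292 CPM at 5% O2, a 1.77-fold difference (log2 difference 0.82 ± 0.085, adjusted p = 0.000237). PRDX4 was 1.55-fold higher, at 288 and 261 CPM against 187 and 166 CPM (0.64 ± 0.11, adjusted p = 0.00154). These 2 calls held when any library of the comparison was left out.

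SOD1 (0.37, adjusted p = 0.0157), PRDX2 (0.27, adjusted p = 0.0354) and CAT (0.50, adjusted p = 0.0394) were also higher, in log2 units. All 3 calls were lost without either 5% O2 library. SOD1 and CAT lost theirs without NAC replicate 1 as well, with adjusted p-values of 0.0509 and 0.356, and PRDX2 without NAC replicate 2. PRDX1 was not called, at 777 and 695 CPM with NAC against 705 and 623 CPM at 5% O2 (0.15, 95% interval -0.047 to 0.34, adjusted p = 0.238). PRDX6 was nearly level, at a log2 difference of 0.031 (95% interval -0.13 to 0.196). Leaving out any 1 library of the comparison gave 0.06 to 0.238 for PRDX1 and 0.015 to 0.043 for PRDX6. PRDX5 (0.30, adjusted p = 0.112) and SOD2 (0.096, adjusted p = 0.558) were not called. Without NAC replicate 1, PRDX5 was at 0.092 and SOD2 at -0.056. With the trend removed, PRDX2, PRDX3 (0.36) and PRDX4 (0.45) were higher (8.05% of genes) and PRDX6 was lower (-0.275, adjusted p = 0.0328; 8.35% of genes). With median transcript lengths PRDX5 was also called higher (0.41, adjusted p = 0.0349) and PRDX6 was not called (-0.211, adjusted p = 0.0625).

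Other gene products supply electrons to these enzymes, carry catalase to peroxisomes or produce the oxidants, and 45 such genes were listed, of which 41 were tested. NOX3, NOX5, CYBB and DUOX2, which encode superoxide or peroxide sources, did not pass the filter. None of the 41 was called between KO and WT cells, against 1.96% of tested genes. There, 5 had an unadjusted p below 0.05, each with a lower level in KO cells, against 8.12% of tested genes lower. DESeq2 called none of 37, against 2.3% of the genes it tested called lower. With NAC, 18 rose and 2 fell, against 23.8% of tested genes higher and 20.8% lower; with the trend removed, 9 were higher and 4 lower (15.4% and 11% of genes). At 5% O2, 2 rose, against 3.68% of tested genes, and none was called with the trend removed. These shares over all tested genes also apply to the single lists below.

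Among 10 thioredoxin and sulfiredoxin partners of peroxiredoxins, 5 rose with NAC and 1 fell, and 3 were higher and 2 lower with the trend removed. TXN, the thioredoxin that recycles cytosolic peroxiredoxins, rose from 145 and 146 CPM to 234 and 255 CPM (log2 fold change 0.75, adjusted p = 3.82e-05). With the trend removed, however, TXN was lower (-0.36, adjusted p = 0.0182). TXNRD1, the reductase of thioredoxin, rose from 252 CPM in both libraries to 391 and 345 CPM (0.545, adjusted p = 0.000667) and SESN1, a sestrin, by 0.57. Both remained called with the trend removed, at 0.396 and 0.41. SESN3 was lower by a log2 difference of -0.425 (adjusted p = 0.0099). SRXN1, which repairs over-oxidised peroxiredoxins, had 50.0 CPM in both untreated and 53.1 and 58.8 CPM in the NAC libraries (0.16, adjusted p = 0.186).

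Of 15 glutathione peroxidases and glutathione partners, 8 rose and 1 fell with NAC, and 3 were higher and 2 lower with the trend removed. The glutaredoxins GLRX3 (1.07, adjusted p = 7.75e-05), GLRX2 (0.95, adjusted p = 0.00415) and GLRX (0.69, adjusted p = 0.00205) had the largest log2 fold changes of the called genes of the list. With the trend removed, GLRX3 was at 0.33 (adjusted p = 0.0435), and GLRX2 (0.249, adjusted p = 0.412) and GLRX (-0.078, adjusted p = 0.688) lost their calls. GCLC, the catalytic subunit of the first enzyme of glutathione synthesis, was lower, at 38.0 and 44.7 CPM with NAC against 54.3 and 50.9 CPM (log2 fold change -0.35, adjusted p = 0.0222; -0.48 with the trend removed, adjusted p = 0.00646). It was also lower with NAC than at 5% O2, by -0.37 (adjusted p = 0.0274), the only partner gene called lower there.

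Of 7 genes for peroxisome assembly and import, the route by which catalase reaches its organelle, 4 rose with NAC, and 2 with the trend removed. PEX3, a membrane anchor of peroxisome assembly, rose from 16.2 and 16.0 CPM to 36.8 and 31 CPM (1.08, adjusted p = 4.13e-05). PEX13 rose by 0.645 and PEX19 by 0.595 in log2 units, and PEX3 and PEX19 remained called with the trend removed, at 0.35 and 0.53, while PEX13 did not (0.245, adjusted p = 0.122). Of 7 tested sources of superoxide and peroxide, ERO1B, an oxidase of the endoplasmic reticulum, rose with NAC (0.81, adjusted p = 0.0196), but was not called with the trend removed (0.34, adjusted p = 0.351). SOD3, the secreted dismutase, was higher with NAC than at 5% O2 (1.255, adjusted p = 0.016), at 11.9 and 4.88 against 3.51 and 3.55 CPM, the higher value being that of the library with fibroblast markers. Between NAC and 5% O2, 11 partner genes were higher and 1 lower, against 15.5% and 13.6% of tested genes, and 4 were higher and 2 lower with the trend removed (8.05% and 8.35%). Among called genes, the largest log2 differences in their lists were those of TXNRD1 (0.44) and TXN (0.415), of GLRX2 (0.78), GLRX (0.72) and GLRX3 (0.59), and of PEX13 (0.735) and PEX3 (0.62). With the trend removed, TXNRD1 (0.33, adjusted p = 0.0214) and PEX13 (0.45, adjusted p = 0.0195) remained called, and GLRX2 (0.39), GLRX (0.27), GLRX3 (0.14), PEX3 (0.153) and TXN (-0.26) did not, with adjusted p-values of 0.0908 to 0.393. At 5% O2 against normal O2 the 2 called genes were TXN (0.34, adjusted p = 0.0337) and PEX3 (0.46, adjusted p = 0.0434), at -0.104 and 0.193 with the trend removed.

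**Figure D5:**
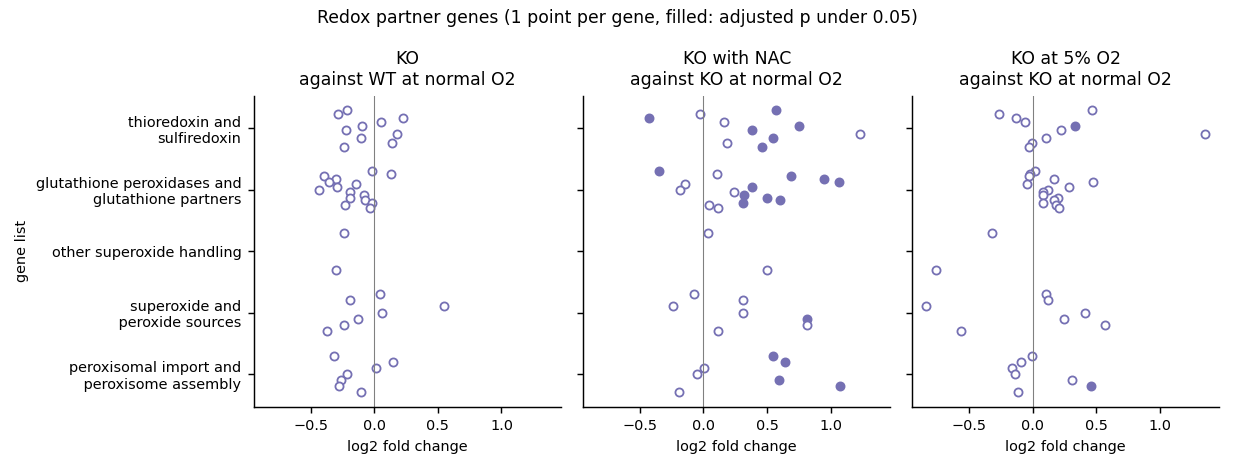
Each point is 1 partner gene, placed by its log2 fold change (x axis) within its list (y axis) in 3 comparisons, and filled for an adjusted p under 0.05. No point is filled for KO against WT, 20 are filled for NAC (18 higher, 2 lower) and 2 for 5% O2.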

How the data were processed

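Libraries were made from total RNA with the TruSeq RNA kit. According to the study's methods and the submitters' processing notes, reads were trimmed with trim-galore, aligned to hg38 with HISAT2 and counted per gene with featureCounts at default settings, which ignore strand; the annotation is not given in the sources used here. The authors deposited raw counts per gene, with no normalisation, in a table of 8 libraries. Counts were analysed here with edgeR 4.0.16 in R 4.3.3: genes were kept by filterByExpr (minimum count 10), scaled by TMM, and fitted with 1 term per group over all 8 libraries, which left 4 residual degrees of freedom and a biological coefficient of variation of 13.7%. Quasi-likelihood tests were adjusted over all 15916 tested genes by Benjamini-Hochberg. CPM are TMM-scaled, and SD and SE are over 2 libraries a group or from the fit. Levels between genes are CPM per kb of the GENCODE v44 canonical transcript. The trend of fold changes over transcript length and GC content was removed with smooth offsets (mgcv 1.9.3) over 15022 genes, 94.4% of those tested. Replicates differed beyond sampling noise (chi-square per degree of freedom 9.53 to 30.7). All 9 genes were named whatever their values; of the partner lists, up to 3 called genes per list and direction with the largest fold change were named; SRXN1 was added after its values were seen, and 1 gene that the rule names is not reported here. Members and lists were chosen with earlier results of these data known. DESeq2 1.42.0 and other settings were alternatives. The scripts were tested on simulated data.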

Additional observations from a re-analysis of the deposited data

How the results depend on the processing

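Of 504 log2 fold changes of the 9 enzymes recomputed under alternatives, 408 kept their direction and side of the threshold, 45 lost the call, 20 gained it and 31 changed sign. With 2 libraries a group, leaving out 1 assumes that the lone library varies like the other groups. Replicate numbers showed little sign of pairing the libraries, with correlations of replicate differences between groups of -0.0226 to 0.0816. These correlations, taken over all tested genes, cannot decide whether the libraries were paired by clone. With the replicate number as a block, 0, 6, 4 and 5 enzymes were called in the comparisons KO against WT, NAC against KO, 5% O2 against KO and NAC against 5% O2, as without it, and all genes called were 366, 7173, 1417 and 4796. The transcript-length alternative was chosen after seeing the data. Except where its construction shows it (fewer genes or libraries), the cause of a change was not tested.

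For KO against WT, all genes called were 312, and 1252 with no filter, 1124 with only the libraries compared, 836 with DESeq2, 179 with the length and GC trend removed and 156 with the replicate block added to that. Enzymes called were 2 with no filter, 2 with only the libraries compared and 3 with DESeq2; partner genes called were 2 with no filter. Leaving out 1 library gave 64 to 78 genes, 0 enzymes and 0 partners. The higher share of calls was 68.3%, and 49.7% with the trend removed. Signs turned for PRDX3 (0.048 with the trend removed, with or without the block), SOD1 (0.081, 0.083 with the block, 0.015 with median transcript lengths, -0.209 to 0.027 leaving out 1 library, the latter without WT replicate 1) and SOD2 (0.037 with median lengths, -0.145 to 0.07 leaving out 1 library).

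For NAC against KO, all genes called were 7100, and 3966 with the trend removed, 3761 with the block added and 1435 by the study's rule. Enzymes called were 6, and 2 by the study's rule; partners were 20, and 13, 11 and 3 in the same settings. Leaving out 1 library gave 5031 to 7591 genes, 6 to 8 enzymes and 10 to 23 partners. Signs turned for PRDX6 (-0.365 with the trend removed, -0.366 with the block, -0.236 with median lengths), SOD1 (-0.031 in both of the former) and SOD2 (-0.081 with median lengths).

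For 5% O2 against KO, all genes called were 1243, and 2220 with no filter, 3009 with only the libraries compared, 324 with the trend removed, 237 with the block added, 551 with median lengths, 2089 with DESeq2 and 321 by the study's rule. Enzymes called were 4, and 1 with the trend removed, 0 with the block added, 2 with median lengths and 0 by the study's rule. Partners were 2, and 4 with upper-quartile scaling, 4 with at least 10 counts in every library, 9 with no filter, 9 with only the libraries compared, 0 in the 3 trend settings, 6 with DESeq2 and 1 by the study's rule. Leaving out 1 library gave 36 to 513 genes, 0 to 3 enzymes and 0 partners. The higher share of calls was 47.1%, and 83.6% with the trend removed and 68.8% with median lengths. Signs turned for PRDX6 (-0.09, -0.091 with the block, -0.025 with median lengths), SOD1 (-0.018 and -0.015 with the block) and SOD2 (-0.008 with median lengths).

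For NAC against 5% O2, all genes called were 4635, and 3050 with only the libraries compared, 2464 with the trend removed, 2223 with the block added, 2873 with median lengths and 703 by the study's rule. Enzymes called were 5, and 3 with only the libraries compared, 3 with trend and block and 0 by the study's rule. Partners were 12, and 7 with only the libraries compared, 6 with the trend removed, 6 with the block added and 1 by the study's rule. Leaving out 1 library gave 1354 to 5468 genes, 2 to 5 enzymes and 3 to 16 partners. Signs turned for PRDX1 (-0.157 with the trend removed, with or without the block, -0.077 with median lengths), PRDX6 (-0.004 with only the libraries compared, -0.275 with the trend removed, with or without the block, -0.211 with median lengths), SOD1 (-0.014, -0.016 with the block) and SOD2 (-0.073 with median lengths, -0.056 to 0.23 leaving out 1 library, the former without NAC replicate 1).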

Other observations

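The genes whose pattern over the 8 libraries was most like that of each enzyme are given as a description, by Pearson's r of log2 CPM; the libraries fall into 4 groups, so r mostly reflects the group means. PRDX3 was closest to PRKRA (r = 0.999), TMEM106B and CAPZA2 (r = 0.998 each), and PRDX4 to PPIH and EEF1A1 (r = 0.996 each). SOD1 was closest to PPAT (r = 0.993), PRDX2 to COMMD7 (r = 0.993), PRDX1 to PLRG1 (r = 0.987) and CAT to IDH3B (r = 0.984). SOD2 was closest to SNW1 (r = 0.981), PRDX5 to XG (r = 0.975) and PRDX6 to NXT2 (r = 0.962).

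Among the 9 enzymes themselves, PRDX2 and PRDX4 (r = 0.97) and PRDX3 and SOD1 (r = 0.96) were the closest pairs. CAT was closest to PRDX5 (r = 0.91). PRDX6 had r of 0.11 to 0.4 with the other 8.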
